A study of Mus musculus with 18 samples.

Results

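The 10 genes described here are known in mouse liver as targets of NRF2, and each was taken by its exact symbol in the table that pairs the array's probes with genes. They are Nqo1, Hmox1, Gclc, Gclm, Txnrd1, Srxn1, Ephx1, Osgin1, Ugdh and Taldo1, out of 22180 gene symbols that had a probe of 1 gene. Each of the 10 was measured by 1 probe, so no choice between probes was needed. The livers came from male C57BL6 mice on 1 of 6 feeds for 12 weeks, from 6 to 18 weeks of age, with 3 biological replicates and 3 arrays per group. L-PFOS and L-PFNA mice ate a low-fat diet, with 10% of its energy as fat, that contained PFOS or PFNA, and LFD mice ate that diet alone. H-PFOS and H-PFNA mice ate a high-fat diet, with 45% of its energy as fat, that contained PFOS or PFNA, and HFD mice ate that diet alone. PFOS, a perfluorinated sulfonic acid, and PFNA, a perfluorinated carboxylic acid, are surfactants with the same number of fluorinated carbons and different head groups. The dose of either compound is not stated in the labels used here. The series title names the effect of diet on the fatty liver disease that these compounds induce.

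NRF2, the product of Nfe2l2, is a transcription factor that the sensor KEAP1 holds at a low level by marking it for degradation. Oxidants and electrophiles modify KEAP1, and NRF2 then pairs with small MAF proteins on antioxidant response elements in the DNA of its targets. The targets make glutathione, reduce thioredoxin, quinones and peroxides, and prepare foreign compounds for conjugation, tasks for which the liver is the main organ. Several of these genes also answer to other receptors in hepatocytes, among them CAR, which is best known for switching on Cyp2b10, and PPARA, which switches on peroxisomal enzymes such as Ehhadh.

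Start-site windows of RefSeq (build GRCm38.p6) were searched for the core letters of the antioxidant response element, spelled TGACNNNGC or TGAGNNNGC, on both strands. A window holds 250 bases before and 50 after a gene's start, and windows were at hand for 8 members, with 3 for Txnrd1. Hmox1 and Gclc had none. At least 1 match lay in the windows of 6 members (Srxn1, Ugdh, Gclm, Taldo1, Osgin1 and Txnrd1), and the windows of Nqo1 and Ephx1 held no match. Across all 32851 windows 27.8% held at least 1 match, so a match alone is common. The stretches around the matches upstream of Ugdh, Osgin1 and Srxn1 are shown because the order of the 6 group means differed between these members. The choice was made after the values were seen. The lowest group mean was 9.61 in LFD livers for Ugdh, 9.08 in H-PFOS livers for Osgin1 and 7.62 in L-PFNA livers for Srxn1. The highest group mean of Srxn1 was 7.97, in H-PFOS livers. With all arrays fitted, no difference of these members passed the test described below. Whether the letters went with these levels was not tested. Capitals mark the matches, and the letters run 5′ to 3′ on the gene's strand. The Ugdh stretch lies on the minus strand at chr5:65435908-65435994, the Osgin1 stretch on the plus strand at chr8:119437038-119437066, inside the annotated span of the gene, and the Srxn1 stretch on the plus strand at chr2:152105346-152105507.
Ugdh: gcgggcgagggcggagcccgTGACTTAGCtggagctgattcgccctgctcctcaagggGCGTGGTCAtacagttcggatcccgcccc
Osgin1: aggggcccctGCTGACTCAcgcttatgaa
Srxn1: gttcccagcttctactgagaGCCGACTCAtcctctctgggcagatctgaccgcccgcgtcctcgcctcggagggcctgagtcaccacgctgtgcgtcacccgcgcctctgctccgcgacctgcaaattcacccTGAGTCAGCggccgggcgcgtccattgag
Ugdh held the TGACNNNGC form once on each strand, Osgin1 held the TGAGNNNGC form on the opposite strand, and Srxn1 held it on both strands. A further TGACNNNGC match of Srxn1 lies after its start, outside the stretch shown. The Osgin1 match and the second of the Srxn1 matches printed in capitals also hold the letters of an AP-1 site (TGAGTCA or, on the other strand, TGACTCA), which overlaps the element. No binding was measured here, and the matches are letters only.

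Values are log2 array signal, read as log2 from their range, and a difference of 1 then stands for a doubling of signal. The median of an array lay between 4.43 and 4.59, and the lowest signal of any member on any array was 5.45, in Nqo1. The 10 hepatocyte markers, such as Alb and Apoa1, averaged between 12.27 and 12.59 per array, so the defining genes of hepatocytes were present on every array. This marker mean was lower on each exposed array than on any control array of its diet, at 12.29 to 12.40 in L-PFOS and 12.35 to 12.44 in L-PFNA livers, against 12.46 to 12.59 in LFD livers. On the high-fat diet it was 12.29 to 12.37 in H-PFOS and 12.272 to 12.424 in H-PFNA livers, against 12.425 to 12.543 in HFD livers. Of the 10 markers, 9, 9, 8 and 7 had a negative difference in L-PFOS, L-PFNA, H-PFOS and H-PFNA livers, and 0 were called. Their median differences were −0.20, −0.15, −0.16 and −0.02 in the same order, the last close to the −0.01 of all probes. The part of this shift in the members' values was not tested. On the first principal component of all 34472 probes, which held 17.9% of the variance, 5 arrays stood apart with scores between 27.8 and 38.6, and the other 13 lay between −22.9 and −8.1. The 5 were the 3 H-PFOS arrays, L-PFOS replicate 3 and H-PFNA replicate 3. The last 2 differ from the other replicates of their own groups and are called the 2 divergent arrays. In whole liver, a lower share of a cell type and less RNA per cell of that type cannot be told apart.

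Calls were made with limma, fitted to all 18 arrays, where the p adjusted by Benjamini and Hochberg over the 34472 probes of a comparison was below 0.05, and "rose" and "fell" are used only of calls. On the low-fat diet, 2 of the 10 genes rose under PFOS (0.281% of all probes were called higher) and 2 rose under PFNA (0.374% of all probes), and these were Ephx1 and Nqo1 with each compound. On the high-fat diet, Ephx1 rose under PFOS, as 1 of the 10 (0.632% of all probes were called higher), and 0 of the 10 were called under PFNA (0.113% of all probes were called in either direction). None of the 10 fell in these 4 comparisons. The median difference of the 10 genes was 0.38 for L-PFOS against LFD, 0.49 for L-PFNA against LFD, 0.18 for H-PFOS against HFD and 0.04 for H-PFNA against HFD, and the medians of all probes lay between −0.02 and −0.01. Lower calls made up 0.107% of all probes in L-PFOS, 0.191% in L-PFNA, 0.389% in H-PFOS and 0.0261% in H-PFNA livers, and calls in either direction 0.389%, 0.566% and 1.02% in the first 3 groups. For the 0 calls under PFNA on the high-fat diet, where 0.087% of all probes were called higher, limma gave 1 member with an unadjusted p under 0.05, Ephx1. By that looser measure 6 of 10 genes were higher in L-PFOS (6.01% of all probes) and 6 in L-PFNA livers (6.66%), and 4 in H-PFOS (7.12%) and 1 in H-PFNA livers (4.92%). By the same measure 2 of 10 were lower in H-PFOS livers, Gclm and Osgin1 (6.42% of all probes), and 0 in the other groups (5.94% in L-PFOS, 6.21% in L-PFNA and 4.86% in H-PFNA livers).

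**Figure D1:**
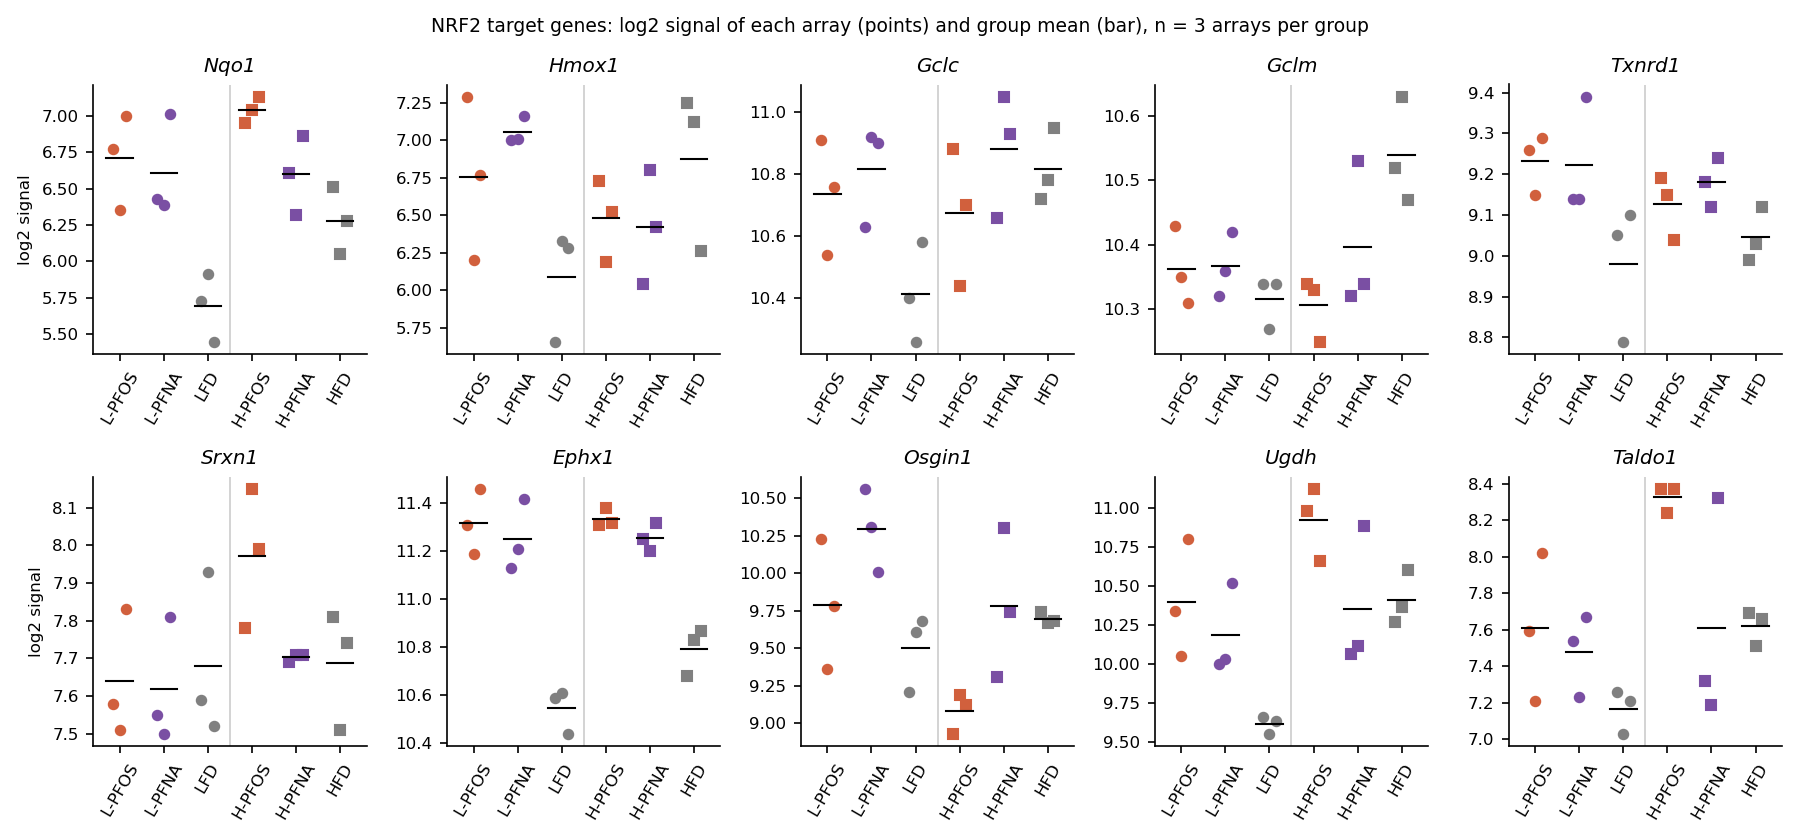
Log2 signal of the 10 genes on each array (points; horizontal position within a group carries no meaning), with the group mean as a bar, by group on the horizontal axis, for n = 3 arrays per group and with a separate vertical scale per gene. Ephx1 was at or above 11.13 on all 12 exposed arrays and at or below 10.87 on all 6 arrays of unexposed mice, whereas Taldo1 and Ugdh spread widely within the L-PFOS and H-PFNA groups.

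Ephx1, the microsomal epoxide hydrolase that opens reactive epoxides to diols, parted exposed from unexposed livers on both diets. It had 11.31, 11.19 and 11.46 in L-PFOS livers and 11.13, 11.21 and 11.42 in L-PFNA livers, against 10.59, 10.61 and 10.44 in LFD livers. On the high-fat diet it had 11.31, 11.38 and 11.32 in H-PFOS livers and 11.25, 11.20 and 11.32 in H-PFNA livers, against 10.68, 10.83 and 10.87 in HFD livers. Every exposed array was thus above every array of its own diet's control, in all 4 comparisons. The difference was 0.77 for PFOS on the low-fat diet (SE 0.11, adjusted p = 0.00683), a 1.71-fold higher signal, and 0.71 for PFNA (SE 0.11, adjusted p = 0.0102). On the high-fat diet it was 0.54 for PFOS (SE 0.11, adjusted p = 0.0305) and 0.46 for PFNA, which was not called (SE 0.11, adjusted p = 0.140). The group means of the exposed livers were close to each other on the 2 diets, with 11.32 ± 0.14 in L-PFOS, 11.25 ± 0.15 in L-PFNA, 11.34 ± 0.04 in H-PFOS and 11.26 ± 0.06 in H-PFNA livers, against 10.55 ± 0.09 in LFD and 10.79 ± 0.10 in HFD livers (SD, n = 3 each).

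The Ephx1 call for PFOS on the low-fat diet was kept without any 1 of the 18 arrays (highest adjusted p = 0.0455). For PFNA on the low-fat diet it ended without L-PFNA replicate 3 (adjusted p = 0.0744). For PFOS on the high-fat diet it ended without HFD replicate 1, 2 or 3 (adjusted p = 0.0991, 0.0871 and 0.0749) and without H-PFOS replicate 1, 2 or 3 (adjusted p = 0.0720, 0.105 and 0.0919). When only the arrays of the 2 groups compared were fitted, all 3 calls were lost, with adjusted p = 0.174 for L-PFOS, 0.0619 for L-PFNA and 0.106 for H-PFOS. The differences themselves moved little, between 0.49 and 0.84 without any 1 array over these 3 comparisons.

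Nqo1, the quinone reductase that is the usual readout of NRF2 activity, was higher in exposed livers by amounts near a doubling on the low-fat diet. It had 6.77, 6.35 and 7.0 in L-PFOS livers and 6.43, 6.39 and 7.01 in L-PFNA livers, against 5.73, 5.91 and 5.45 in LFD livers, so that neither exposed group overlapped the control. It had 6.95, 7.04 and 7.13 in H-PFOS livers and 6.61, 6.32 and 6.86 in H-PFNA livers, against 6.51, 6.05 and 6.28 in HFD livers. Here H-PFOS lay apart from the control and H-PFNA overlapped it. The difference was 1.01 for PFOS (SE 0.20, adjusted p = 0.0415) and 0.91 for PFNA (SE 0.20, adjusted p = 0.0495) on the low-fat diet, a 2.01-fold and a 1.88-fold higher signal. In high-fat livers it was 0.76 for PFOS (SE 0.20, adjusted p = 0.0758) and 0.32 for PFNA (SE 0.20, adjusted p = 0.659), neither of them called.

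The Nqo1 calls lay close to the threshold. For PFOS on the low-fat diet the call ended without LFD replicate 1, 2 or 3 (adjusted p = 0.0984, 0.0782 and 0.111) and without L-PFOS replicate 1 or 3 (0.133 and 0.0789). It also ended without any 1 of 6 arrays outside the comparison, at adjusted p between 0.0510 and 0.0589 (L-PFNA replicate 1, HFD replicate 3, the 3 H-PFOS arrays and H-PFNA replicate 1). For PFNA on the low-fat diet the call ended without LFD replicate 1, 2 or 3 (adjusted p = 0.116, 0.0758 and 0.118) and without L-PFNA replicate 1, 2 or 3 (0.0874, 0.0702 and 0.215). It ended without any 1 of 7 arrays outside that comparison as well, at adjusted p between 0.0543 and 0.0665 (L-PFOS replicate 1, HFD replicates 2 and 3, the 3 H-PFOS arrays and H-PFNA replicate 1). The PFOS call on the low-fat diet was also lost with quantile normalization (adjusted p = 0.0589), with only the compared groups fitted (0.220) and without the 2 divergent arrays (0.0586). The PFNA call was lost with quantile normalization (adjusted p = 0.0587), with only the compared groups fitted (0.0904) and with probes averaged per gene (0.05001). For PFOS on the high-fat diet Nqo1 was called higher with dim probes left out (adjusted p = 0.0390) and without the 2 divergent arrays (0.0408). Its difference stayed at 0.76 in both fits, and the second was chosen after the values were seen. The lowest difference without any 1 array was 0.86 for PFOS and 0.71 for PFNA on the low-fat diet.

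Cyp2b10, the CAR readout, rose in all 4 exposures in which Ephx1 and Nqo1 were compared, and by more. It lay between 7.94 and 10.63 in L-PFOS and between 9.44 and 10.34 in L-PFNA livers, against 3.81 to 4.58 in LFD livers. In high-fat livers it lay between 7.26 and 9.28 in H-PFOS and between 7.70 and 10.63 in H-PFNA livers, against 3.88 to 4.49 in HFD livers. The difference was 5.2 in L-PFOS, 5.71 in L-PFNA, 4.39 in H-PFOS and 5.26 in H-PFNA livers (SE 0.67 each, limma adjusted p = 0.00391, 0.00125, 0.00621 and 0.00193). The part of a CAR response in the Ephx1 and Nqo1 values was not tested.

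**Figure D2:**
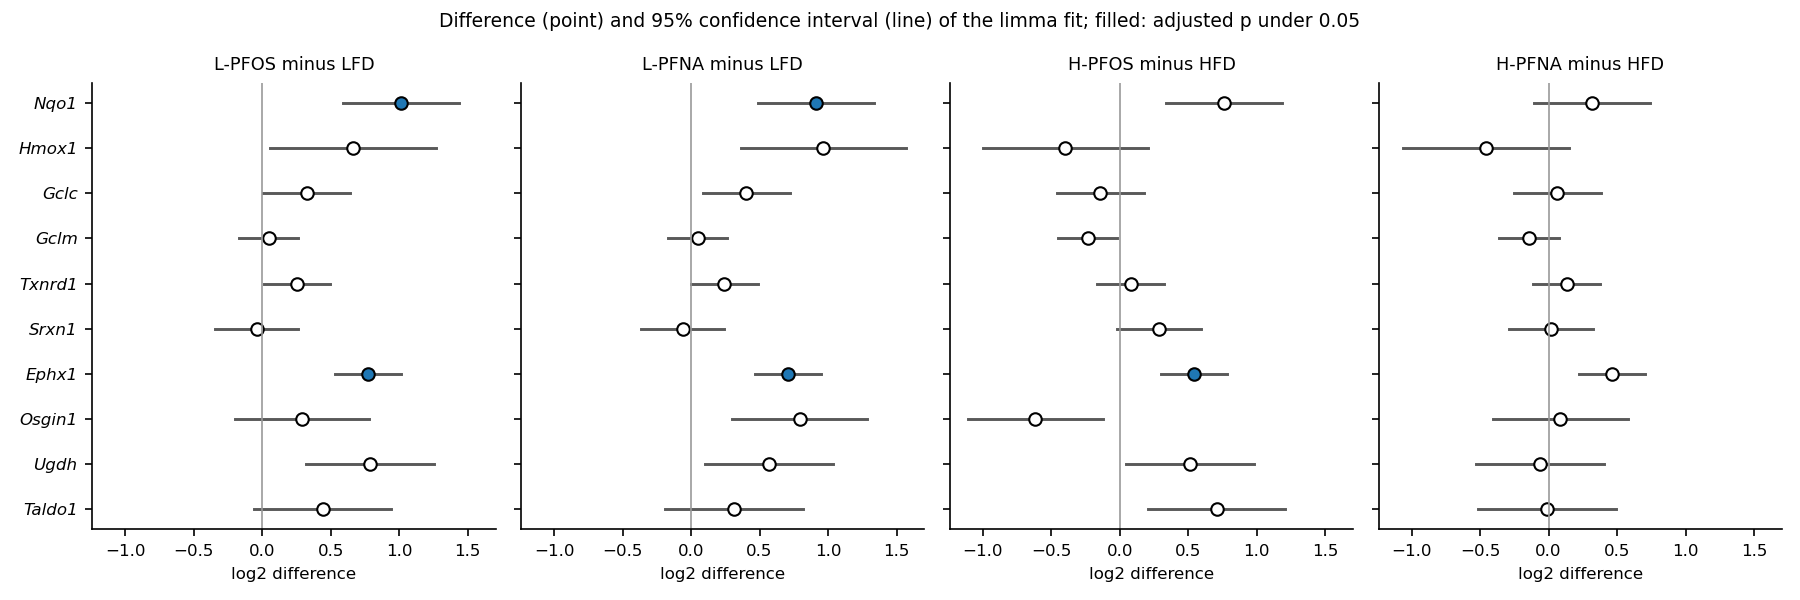
Log2 difference of each gene in exposed minus control livers of the same diet (point) with its 95% confidence interval from the limma fit (line), in 4 panels for L-PFOS, L-PFNA, H-PFOS and H-PFNA, where filled points had an adjusted p under 0.05 over all probes. Ephx1 is filled in 3 panels and Nqo1 in 2, and the intervals of Srxn1 include 0 in all 4.

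Of the genes that supply glutathione, neither was called in any comparison. Gclc encodes the catalytic and Gclm the modifier subunit of glutamate cysteine ligase, the enzyme that sets the pace of glutathione synthesis. Gclc had 10.91, 10.54 and 10.76 in L-PFOS livers and 10.63, 10.92 and 10.90 in L-PFNA livers, against 10.40, 10.26 and 10.58 in LFD livers. The L-PFNA arrays lay above the controls, with a difference of 0.40 (SE 0.15, adjusted p = 0.243), and the L-PFOS arrays overlapped them. In high-fat livers Gclc differed by −0.14 for PFOS (SE 0.15) and 0.06 for PFNA (SE 0.15). Gclm had 10.34, 10.33 and 10.25 in H-PFOS livers, below 10.52, 10.63 and 10.47 in HFD livers, with a difference of −0.23 (SE 0.10, adjusted p = 0.325). On the low-fat diet its difference was 0.05 for either compound (SE 0.10), with 95% intervals between −0.17 and 0.27.

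Txnrd1, the cytosolic thioredoxin reductase, and Srxn1, the sulfiredoxin that repairs overoxidised peroxiredoxins, showed small differences that were not called. Txnrd1 had 9.26, 9.15 and 9.29 in L-PFOS livers and 9.14, 9.14 and 9.39 in L-PFNA livers, above 9.05, 8.79 and 9.10 in LFD livers. These differences were 0.25 for PFOS (SE 0.12, adjusted p = 0.399) and 0.24 for PFNA (SE 0.12, adjusted p = 0.390), and on the high-fat diet they were 0.08 and 0.13 (SE 0.12). Srxn1 had 7.78, 8.15 and 7.99 in H-PFOS livers, against 7.81, 7.51 and 7.74 in HFD livers, a difference of 0.29 with overlapping arrays (SE 0.14, adjusted p = 0.407). Its other 3 exposure differences lay between −0.06 and 0.02, and the 95% intervals of these 3 lay between −0.36 and 0.32.

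Hmox1, heme oxygenase 1, which breaks down heme and is also made by macrophages, differed between the exposures by diet without a call. It had 7.29, 6.20 and 6.77 in L-PFOS livers and 7.0, 7.01 and 7.16 in L-PFNA livers, against 5.66, 6.33 and 6.28 in LFD livers. On the high-fat diet it had 6.73, 6.19 and 6.52 in H-PFOS livers and 6.04, 6.80 and 6.42 in H-PFNA livers, against 7.25, 7.12 and 6.26 in HFD livers. The L-PFNA arrays alone lay clear of their control. The difference was 0.66 for PFOS (SE 0.29, adjusted p = 0.368) and 0.97 for PFNA (SE 0.29, adjusted p = 0.131) on the low-fat diet, and −0.40 for PFOS (SE 0.29, adjusted p = 0.606) and −0.46 for PFNA (SE 0.29, adjusted p = 0.654) on the high-fat diet.

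Kupffer cells and macrophages are a known source of Hmox1, and the levels of their markers are given beside it. The mean log2 signal of the 9 of 9 listed markers that were measured lay between 7.43 and 8.14 in L-PFOS livers and between 7.76 and 8.05 in L-PFNA livers, against 6.89 to 7.62 in LFD livers. On the high-fat diet it lay between 7.18 and 7.61 in H-PFOS livers and between 7.26 and 7.59 in H-PFNA livers, against 6.72 to 7.73 in HFD livers. The HFD array with the lowest Hmox1, replicate 3, also had the lowest marker mean of the 18 arrays, and the L-PFOS array with the highest Hmox1, replicate 1, had the highest. Other arrays did not follow this order, such as L-PFOS replicate 2, with a marker mean of 7.70 and Hmox1 at 6.20, and LFD replicate 3, with 7.62 and 6.28. No marker of the list was at 0, and the dimmest of them had a group mean of at least 5.86 (Timd4 in LFD livers). Of the 9 markers, 6 lay higher on all 3 L-PFNA arrays than on any LFD array (10.1% of all probes did) and 0 were called. The shift was not particular to this list. In the same comparison 9 of 9 sinusoidal endothelial markers lay higher on all 3 L-PFNA arrays, with 0 called. The part of Kupffer cells and macrophages in the Hmox1 values was not tested.

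**Figure D3:**
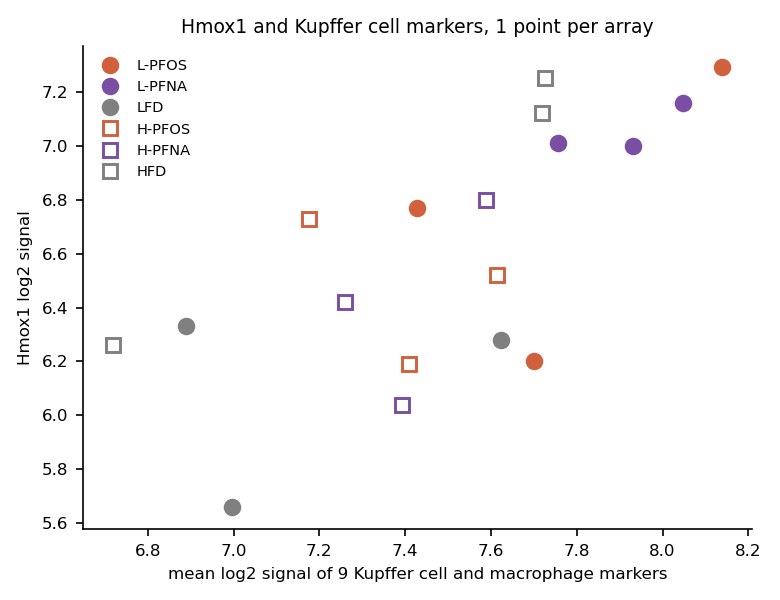
Log2 signal of Hmox1 (vertical axis) against the mean log2 signal of 9 Kupffer cell and macrophage markers (horizontal axis), 1 point per array, with filled circles for the low-fat and open squares for the high-fat groups. The L-PFNA arrays lie at the upper right and HFD replicate 3, with the lowest marker mean at 6.72, had 6.26, whereas L-PFOS replicate 2 had a marker mean of 7.70 with Hmox1 at 6.20, and H-PFNA replicate 1 had 7.39 with 6.04.

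Osgin1, an oxidative stress induced growth inhibitor, was lowest in H-PFOS livers, and none of its differences passed the test. It had 8.93, 9.19 and 9.12 in H-PFOS livers, below all other 15 arrays. It had 9.31, 10.30 and 9.74 in H-PFNA livers, which overlapped 9.74, 9.67 and 9.68 in HFD livers. On the low-fat diet it had 10.23, 9.36 and 9.78 in L-PFOS livers and 10.56, 10.31 and 10.01 in L-PFNA livers, against 9.21, 9.61 and 9.68 in LFD livers, and only the L-PFNA arrays lay above the control. The difference was −0.62 for PFOS on the high-fat diet (SE 0.23, adjusted p = 0.234) and 0.79 for PFNA on the low-fat diet (SE 0.23, adjusted p = 0.129). The other differences were 0.29 for PFOS on the low-fat diet and 0.09 for PFNA on the high-fat diet (SE 0.23).

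Ugdh makes UDP-glucuronic acid, the sugar donor of glucuronidation, and Taldo1, transaldolase, belongs to the pentose phosphate pathway that supplies NADPH. Ugdh had 10.34, 10.05 and 10.80 in L-PFOS livers and 10.00, 10.03 and 10.52 in L-PFNA livers, each above 9.66, 9.55 and 9.63 in LFD livers. It had 10.98, 11.12 and 10.66 in H-PFOS livers and 10.06, 10.11 and 10.88 in H-PFNA livers, against 10.27, 10.36 and 10.60 in HFD livers. H-PFOS was thus above its control and H-PFNA lay on both sides of it. The difference was 0.78 for PFOS (SE 0.22, adjusted p = 0.149) and 0.57 for PFNA (SE 0.22, adjusted p = 0.262) on the low-fat diet, and 0.51 for PFOS (SE 0.22, adjusted p = 0.317) and −0.06 for PFNA (SE 0.22, adjusted p = 0.960) on the high-fat diet.

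Taldo1 had 7.59, 7.21 and 8.02 in L-PFOS livers and 7.54, 7.23 and 7.67 in L-PFNA livers, against 7.26, 7.03 and 7.21 in LFD livers. It had 8.37, 8.24 and 8.37 in H-PFOS livers and 7.32, 7.19 and 8.32 in H-PFNA livers, against 7.69, 7.51 and 7.66 in HFD livers. The 5 highest arrays were the 3 H-PFOS arrays and the 2 divergent arrays, and the other 13 lay at or below 7.69. The difference was 0.71 for PFOS on the high-fat diet (SE 0.24, adjusted p = 0.171). The call was made without H-PFNA replicate 3 (adjusted p = 0.0473), without both divergent arrays (0.0114) and in a fit to the H-PFOS and HFD arrays alone (0.0476). The divergent arrays lie outside this comparison, so the difference stayed at 0.71 in these fits. What changed was the estimate of the spread with its degrees of freedom. The p-values of all other probes, over which the adjustment is made, changed as well. Leaving both out was chosen after their values were seen. The other 3 exposure differences were 0.44 for L-PFOS, 0.31 for L-PFNA and −0.01 for H-PFNA (SE 0.24).

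The same 5 arrays were also the highest 5 for Ugdh, at 10.66 to 11.12 against at most 10.60 on the other 13, and for Ehhadh, the peroxisomal enzyme and PPARA target, at 12.91 to 13.26 against at most 11.70. Their Cyp4a14 signals, a further PPARA target, lay between 13.39 and 13.52, above the other exposed arrays (13.02 to 13.24). Cyp2b10, the CAR target, was between 7.26 and 9.28 on these 5 arrays and between 9.44 and 10.63 on the other 7 exposed arrays. Ehhadh differed by 1.98 in H-PFOS against HFD livers (SE 0.40, adjusted p = 0.0259). The part of a PPARA response in the Taldo1 and Ugdh values was not tested.

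**Figure D4:**
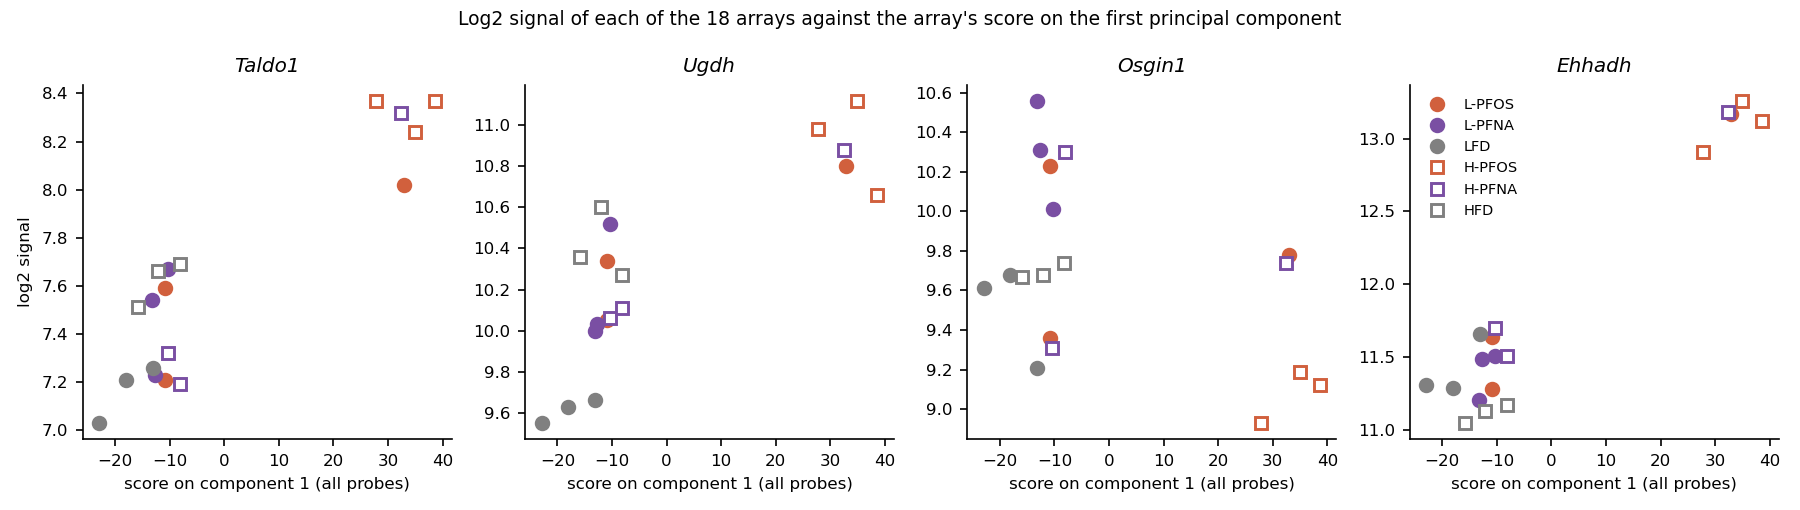
Log2 signal of Taldo1, Ugdh, Osgin1 and Ehhadh (vertical axes) on each of the 18 arrays against that array's score on the first principal component of all probes (horizontal axis), with filled circles for the low-fat and open squares for the high-fat groups. The 5 arrays with scores of 27.8 or more are the 5 highest for Taldo1, Ugdh and Ehhadh, while for Osgin1 the 3 H-PFOS arrays are the lowest and the 2 divergent arrays lie at 9.74 and 9.78.

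Counted by whether arrays overlapped, 4 of the 10 genes were higher on all 3 L-PFOS arrays than on any LFD array, where 7.58% of all probes were. For L-PFNA against LFD 7 of 10 were (10.1% of all probes), for H-PFOS against HFD 4 of 10 (9.71%) and for H-PFNA against HFD 1 of 10, Ephx1 (6.83%). Lower on all 3 exposed arrays were 0 of 10 genes in L-PFOS and L-PFNA livers (8.12% and 9.32% of all probes), 2 of 10 in H-PFOS livers, Gclm and Osgin1 (8.68%), and 0 of 10 in H-PFNA livers (6.89%). The L-PFOS and L-PFNA comparisons share the 3 LFD arrays, and the H-PFOS and H-PFNA comparisons share the 3 HFD arrays.

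The low-fat controls held the lowest group mean for 7 of the 10 genes (Nqo1, Hmox1, Gclc, Txnrd1, Ephx1, Ugdh and Taldo1). Between the 2 unexposed groups, the difference of HFD minus LFD was positive for 10 of 10 genes, with a median of 0.33 beside −0.01 for all probes. Limma called 0 of the 10 (0.0029% of all probes were called in either direction), and 6 of the 10 were higher at an unadjusted p under 0.05 (3.21% of all probes, and 3.24% lower). Ugdh had the largest difference at 0.80 (SE 0.22, adjusted p = 0.556), followed by Hmox1 at 0.79 (SE 0.29, adjusted p = 0.691) and Nqo1 at 0.58 (SE 0.20, adjusted p = 0.679). Ugdh and Nqo1 were higher on all 3 HFD arrays than on any LFD array, as were Gclc, Gclm, Ephx1 and Taldo1, which made 6 of 10 genes (4.84% of all probes), and 0 were lower on all 3 (5.54%). Markers of several other cells had positive differences in the same comparison, with 0 called. These were 10 of 10 stellate cell and fibroblast markers (median 0.53, 5 at an unadjusted p under 0.05), 9 of 9 Kupffer cell and macrophage markers (median 0.19) and 5 of 5 measured cholangiocyte markers (median 0.30). Other lists were mixed, with 7 of 9 endothelial, 5 of 7 measured lymphocyte, 4 of 5 adipocyte and 3 of 6 neutrophil markers positive. Of the hepatocyte markers, 8 of 10 were negative. The stellate marker mean was 7.87, 6.85 and 7.13 on the 3 HFD arrays, against 6.69 to 6.88 in LFD livers, so its shift leaned most on replicate 1. The part of these cells in the members' values was not tested. In the order of the 6 group means, adjacent groups mostly overlapped. Ephx1 was exceptional in that all 4 exposed groups overlapped each other and lay apart from HFD livers, which in turn lay apart from LFD livers.

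The comparison of PFNA with PFOS on the same diet asked whether the head group went with a different response, and it covered 20 differences, 10 genes on each of 2 diets. Without stated doses, it is not known whether the compounds were given at matched doses. The p-values are adjusted over all probes of a diet, which is stricter than over these differences. On the low-fat diet limma called 0 of 10 genes (0.0% of all probes were called), and 1, Osgin1, was higher at an unadjusted p under 0.05 (2.1% of all probes, and 1.82% lower). For 0 of 10 genes did the arrays of the 2 groups lie apart in either direction (4.62% of all probes higher and 4.36% lower). The differences of L-PFNA minus L-PFOS lay between −0.21 for Ugdh and 0.50 for Osgin1, and all 10 had an adjusted p of 0.998. The interval of Ephx1 was −0.31 to 0.17 around a difference of −0.07, and that of Nqo1 was −0.52 to 0.33 around −0.10. With 3 arrays per group, true differences up to these bounds remain compatible with the values.

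In high-fat livers limma again called 0 of 10 genes for H-PFNA minus H-PFOS (0.0029% of all probes were called), and 4 had an unadjusted p under 0.05, 1 higher (3.49% of all probes) and 3 lower (3.76%). The arrays lay apart for Osgin1, which was higher (5.13% of all probes), and for Nqo1 and Srxn1, which were lower (5.14%). Osgin1 differed by 0.70 (95% interval 0.21 to 1.19, adjusted p = 0.654). Taldo1 differed by −0.72 (−1.22 to −0.21, adjusted p = 0.654), Ugdh by −0.57 (−1.04 to −0.10, adjusted p = 0.654) and Nqo1 by −0.44 (−0.87 to −0.02, adjusted p = 0.682). Ephx1 differed by −0.08 (−0.32 to 0.16, adjusted p = 0.919). Without the 2 divergent arrays, one of which is H-PFNA replicate 3, Taldo1 was lower in H-PFNA than in H-PFOS livers by the test, at −1.07 (adjusted p = 0.00274), and so was Ugdh, at −0.84 (adjusted p = 0.0303). That fit called 510 of all 34472 probes, 259 higher and 251 lower, against 1 with all arrays. Leaving these arrays out was chosen after their values were seen, so those results are no independent evidence.

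**Figure D5:**
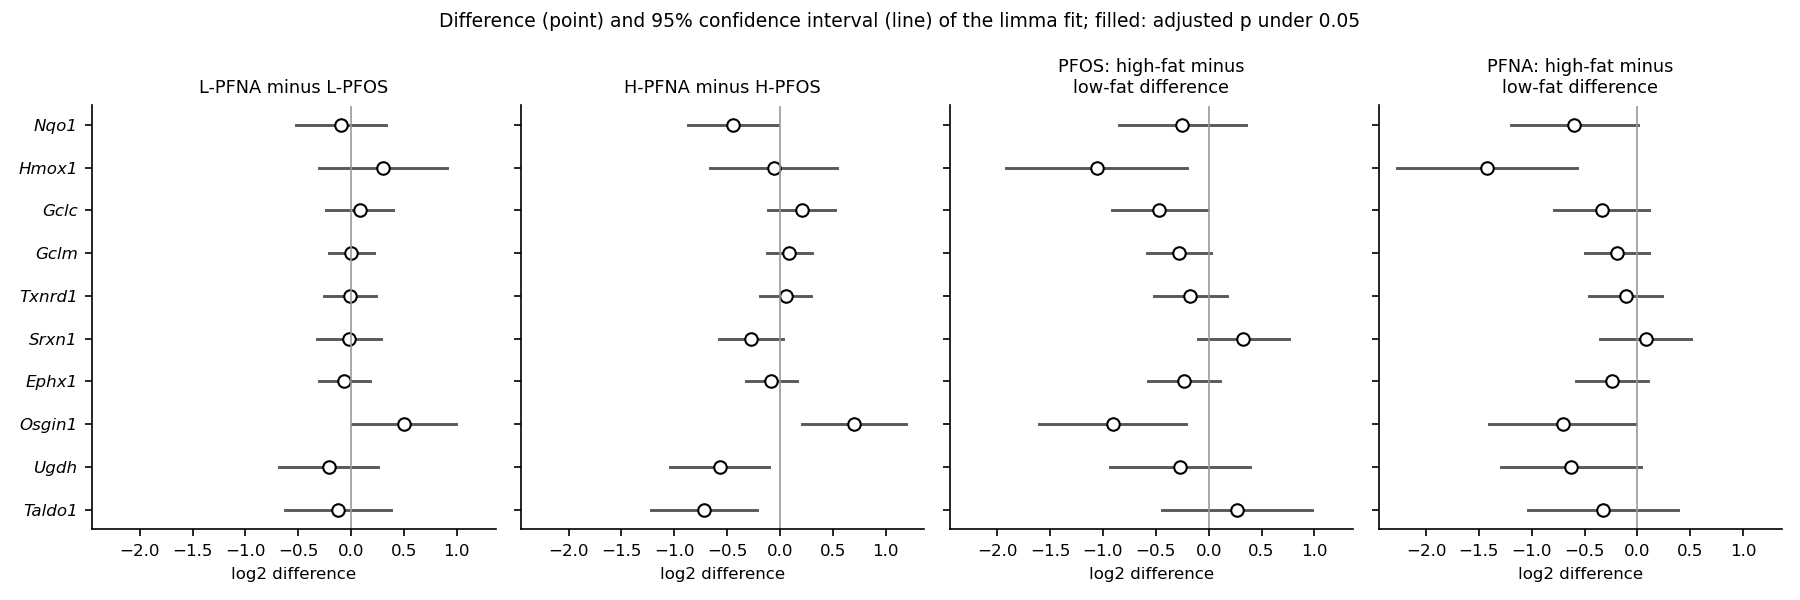
Log2 difference (point) and 95% confidence interval (line) of each gene for L-PFNA minus L-PFOS, H-PFNA minus H-PFOS, and for the PFOS and PFNA effects on the high-fat diet minus those on the low-fat diet. No point is filled, since no adjusted p was under 0.05, and the intervals of Hmox1 and Osgin1 lie below 0 in both panels of diet differences.

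Whether the diet altered the response was tested as the difference between the high-fat and the low-fat effect of a compound. For PFOS it was negative for 8 of 10 genes, with a median of −0.26, and for PFNA for 9 of 10, with a median of −0.33, beside 0.02 and 0.00 for all probes. Limma called 0 of 10 genes for either compound (0.0% of all probes were called for either), and 3 genes for PFOS and 2 for PFNA were negative at an unadjusted p under 0.05 (3.26% and 2.73% of all probes, with 3.1% and 2.45% positive). Hmox1 had the largest values, at −1.06 for PFOS (95% interval −1.91 to −0.21, adjusted p = 0.759) and −1.42 for PFNA (−2.28 to −0.57, adjusted p = 0.942). Osgin1 had −0.91 for PFOS (−1.60 to −0.21, adjusted p = 0.759) and −0.71 for PFNA (−1.40 to −0.01, adjusted p = 0.943). The values of Ephx1 were −0.23 for PFOS (−0.57 to 0.11) and −0.24 for PFNA (−0.58 to 0.10). Each of these tests subtracts the HFD minus LFD difference of the controls, which was 0.79 for Hmox1 and 0.25 for Ephx1. Markers of several other cells had negative values in the same tests, with none called. For PFOS and PFNA these were 9 of 9 Kupffer cell and macrophage markers (medians −0.49 and −0.69), 9 of 9 endothelial markers (−0.41 and −0.37) and 10 of 10 stellate cell and fibroblast markers (−0.59 and −0.60). Also negative were 7 and 6 of 7 measured lymphocyte markers (−0.31 and −0.45) and 5 of 5 measured cholangiocyte markers (−0.33 and −0.27). Hepatocyte markers (3 and 4 of 10 negative), neutrophil markers (2 and 3 of 6) and adipocyte markers (2 and 3 of 5) were mixed. The part of these cells in the members' values was not tested.

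Of the other genes of the pathway, 55 of 64 listed were measured by a probe of 1 gene, in 7 lists by role. In these lists 4 genes rose in L-PFOS (0.281% of all probes), 5 in L-PFNA (0.374%), 3 in H-PFOS (0.632%) and 1 in H-PFNA livers (0.087%) against the control of the diet, and 0 fell. The list of conjugation and export held 3, 3, 2 and 1 of these calls in the same order. Abcc3, a pump that exports conjugates into the blood, rose by 0.90 in L-PFOS (SE 0.13, adjusted p = 0.00645) and 0.95 in L-PFNA livers (SE 0.13, adjusted p = 0.00439), and differed by 0.36 in H-PFOS and 0.34 in H-PFNA livers without a call. Gsta4, a glutathione transferase for lipid aldehydes, rose by 1.30 in L-PFOS, 1.34 in L-PFNA and 0.79 in H-PFNA livers (SE 0.14 each, adjusted p = 0.00115, 5.36e-04 and 0.0405). Its H-PFOS difference was 0.39 (adjusted p = 0.220). Gstm3 rose by 3.26 in L-PFOS and 3.79 in L-PFNA livers (SE 0.65, adjusted p = 0.0415 and 0.0128). It differed by 1.78 in H-PFOS and 1.84 in H-PFNA livers without a call. Gstm4 rose by 1.29 in H-PFOS livers (SE 0.24, adjusted p = 0.0191), and differed by 0.59 in L-PFOS, 0.25 in L-PFNA and 0.74 in H-PFNA livers without a call. The Gstm genes resemble each other closely in sequence, so their probes may share signal. Abcc4, another efflux pump, was also called higher in H-PFOS livers, by 1.65. It falls outside the naming rule and is named after its values were seen (SE 0.33, adjusted p = 0.0267).

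Aox1, aldehyde oxidase, rose by 1.0 in L-PFOS (SE 0.14, adjusted p = 0.00552) and 0.96 in L-PFNA livers (SE 0.14, adjusted p = 0.00614). Its differences of 0.31 in H-PFOS and 0.24 in H-PFNA livers were not called. Aldh1a1, an aldehyde dehydrogenase, rose by 0.59 in L-PFNA livers (SE 0.12, adjusted p = 0.0274). It had 0.54 in L-PFOS (adjusted p = 0.0555), −0.04 in H-PFOS and 0.14 in H-PFNA livers without a call. Both genes belong to the list of reductases and aldehyde oxidation, with 8 genes measured. The list's median difference was 0.03 in L-PFOS, 0.085 in L-PFNA, 0.24 in H-PFOS and 0.19 in H-PFNA livers. Of the 8 genes, 4, 3, 3 and 3 had a negative difference in the same order. Me1, malic enzyme, an NADPH source and a known PPARA target, rose by 1.59 in H-PFOS livers (SE 0.36, adjusted p = 0.0407). Its other differences, 0.81 in L-PFOS, 0.45 in L-PFNA and 0.43 in H-PFNA livers, were not called. Its list had 4 of 6 genes measured and 1 called.

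The sensor and its partners were not called. Among 10 regulators (Nfe2l2, Keap1, Cul3, Bach1, Bach2, Mafg, Mafk, Maff, Sqstm1 and Nfe2l1) the median difference lay between 0.00 and 0.12 in the 4 exposures. The lowest adjusted p of the list belonged to Mafg, a small MAF partner of NRF2, at −0.49 in H-PFNA livers (SE 0.12, adjusted p = 0.150). Among 10 genes of glutathione supply and use 0 were called, with medians between 0.10 and 0.23, and Slc3a2, a subunit of the cystine importer, had 0.62 in L-PFOS and 0.56 in L-PFNA livers (SE 0.18, adjusted p = 0.162 and 0.159). Among 7 measured genes of the thioredoxin and peroxide list 0 were called, with medians between 0.09 and 0.17, and Txn1, thioredoxin, had 0.47 in H-PFOS livers (SE 0.15, adjusted p = 0.133). In the list of heme and iron genes 0 of 4 were called, and its lowest adjusted p was that of Slc40a1, the iron exporter, at −0.57 in H-PFOS livers (SE 0.23, adjusted p = 0.271).

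The 10 genes did not share 1 course across the arrays. Over the 18 arrays, 33 of the 45 pairs of genes had a Pearson correlation above 0, with a median of 0.32. The closest pairs were Ugdh with Taldo1 (r = 0.91, Spearman's rho = 0.87) and Nqo1 with Ephx1 (r = 0.89, rho = 0.91), and the least alike were Srxn1 and Osgin1 (r = −0.42, rho = −0.35). After the group means were taken away, r was 0.82 for Ugdh with Taldo1, 0.69 for Nqo1 with Ephx1 and 0.07 for Srxn1 with Osgin1. These values describe arrays that share groups and a normalization, and no p is given.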

How the data were processed

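RNA of 18 liver samples was measured on a gene-level array, in 6 groups of 3. The authors deposited 1 log2 value per probe and array (34472 probes), and the submitters' processing notes name the program Transcriptome Analysis Console. The log base was read from the values, and background correction, normalization and summarization are not described there or in the labels. Replicates are biological per the labels.

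Of the probes, 23521 had 1 gene symbol, 1814 several and 9137 none, and all 10 members matched RefSeq by symbol. Limma 3.58.1 (R 4.3.3) fitted 1 mean per group to all probes and 18 arrays, without a filter, with 12 residual and 5.21 prior degrees of freedom. There were 9 contrasts, with Benjamini-Hochberg adjustment over all probes of each. The fit was tested on simulated data with 200 changed probes. For L-PFOS against LFD it called 11.3% of log2 changes of 0.5, 71.9% of changes of 1 and 98.8% of changes of 2. Changes near 0.5 were thus mostly missed in the simulation, so a gene not called may still have changed. The changed probes were drawn at random from all probes, and the noise was independent between arrays. The rates are therefore averages and not those of the 10 members, whose SE in this comparison ran from 0.10 (Gclm) to 0.29 (Hmox1). Errors are standard errors of this fit. For arrays, their number limits the precision.

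The members and lists were chosen with earlier results of these data known. The naming rule took all members, up to 4 called genes per list (or the 1 with the lowest adjusted p), 3 receptor readouts and the 10 genes most like the members. Alternatives were quantile normalization, median centring, a filter on dim probes, a fit to the compared groups, a replicate block, averaged probes, a variance trend, and leaving out each array. Same-numbered arrays mostly did not deviate together (45 pairs, r from −0.072 to 0.421, median −0.001, 3 of 45 over 0.1), so the numbers were not taken as pairs. The r of 0.421 was that of the 2 divergent arrays, both replicate 3, and the highest r of 90 different-numbered pairs was 0.224. Whether these 2 arrays shared a batch was not tested.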

Additional observations from a re-analysis of the deposited data

How the results depend on the processing

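Of 2340 recomputed differences, 2242 kept their direction and side of the threshold, 40 lost a call, 8 gained one and 50 changed sign. Much of this agreement was fixed in advance, since leaving out an array of a group outside a comparison cannot change its difference. Most differences also had no call to lose. The main calls (2, 2 and 1) were each refitted without 1 array (18 fits) and in 8 other settings. Of their 40 losses, 31 came without 1 array and 9 in the other settings. No called difference changed sign, and the largest main difference that did was 0.13. The number of members called for L-PFOS against LFD (2) became 1 with quantile normalization, 0 with the compared groups only and 1 without the 2 divergent arrays, an alternative chosen after seeing the data. For L-PFNA against LFD (2) it became 1 with quantile normalization, 0 with the compared groups only and 1 with probes averaged per gene. For H-PFOS against HFD (1) it became 2 with dim probes left out and 3 without the 2 divergent arrays. For H-PFNA against HFD (0) it became 1, Ephx1, with a variance trend and robust prior (adjusted p = 0.0485), and for H-PFNA against H-PFOS (0) it became 2 without the 2 divergent arrays. With 1 array left out these counts lay between 1 and 2 for L-PFOS, 0 and 2 for L-PFNA and 0 and 2 for H-PFOS, and stayed at 0 elsewhere. Over all probes, the calls for L-PFOS against LFD numbered 134, and 6 with the compared groups only. Without the 2 divergent arrays calls over all probes numbered 454 for L-PFOS (134 with all arrays), 593 for L-PFNA (195), 1011 for H-PFOS (352) and 148 for H-PFNA (39) against the controls, and 510 for H-PFNA against H-PFOS (1). With dim probes left out, 794 of 17234 probes were called for H-PFOS against HFD. With the replicate block the members called stayed at 2, 2 and 1 in the first 3 comparisons and 0 in the others. The block changed no other member call. The causes were not tested.

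The sign changes concern differences that were small and not called. Median centring gave 0.03 for Srxn1 in L-PFOS against LFD, 0.03 for Taldo1 in H-PFNA against HFD and −0.01 for Gclm in L-PFNA against L-PFOS. Quantile normalization gave −0.012 for Srxn1 in H-PFNA against HFD, −0.019 for Srxn1 in HFD against LFD, and, in L-PFNA against L-PFOS, −0.00028 for Gclm and 0.0022 for Txnrd1. Without the 2 divergent arrays L-PFNA against L-PFOS gave 0.05 for Nqo1, −0.023 for Gclm, 0.018 for Txnrd1, 0.075 for Srxn1, 0.0033 for Ephx1 and 0.08 for Taldo1. With 1 array left out, values ranged over both signs. In L-PFOS against LFD they ran from −0.135 to 0.085 for Srxn1. In L-PFNA against LFD they ran from −0.155 to 0.065 for Srxn1. In H-PFNA against HFD they ran from −0.022 to 0.173 for Gclc, −0.072 to 0.078 for Srxn1, −0.172 to 0.323 for Osgin1, −0.325 to 0.085 for Ugdh and −0.365 to 0.2 for Taldo1. In HFD against LFD they ran from −0.028 to 0.127 for Txnrd1 and −0.073 to 0.132 for Srxn1. In L-PFNA against L-PFOS they ran from −0.297 to 0.05 for Nqo1, −0.018 to 0.173 for Gclc, −0.023 to 0.037 for Gclm, −0.093 to 0.032 for Txnrd1, −0.115 to 0.075 for Srxn1, −0.15 to 0.0033 for Ephx1 and −0.325 to 0.08 for Taldo1. In H-PFNA against H-PFOS they ran from −0.25 to 0.13 for Hmox1. In (H-PFNA against HFD) minus (L-PFNA against LFD) they ran from −0.048 to 0.172 for Srxn1.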

Other observations

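Among all other named genes, those whose level over the 18 arrays was most like the mean standardised level of the 10 members were Akr1a1 (r = 0.94, rho = 0.88), an aldehyde reductase, and Cyb5b (r = 0.91, rho = 0.78), the mitochondrial cytochrome b5. Mcm2, a replication licensing factor, followed with r = 0.88 (rho = 0.75), then Aox1, aldehyde oxidase, with r = 0.88 (rho = 0.89), and the remaining 6 (Mpp1, Themis, Aldh1a7, Fitm1, Gpd1 and Entpd5) had r between 0.86 and 0.88. Akr1a1 differed by 0.25 in L-PFOS, 0.31 in L-PFNA, 0.15 in H-PFOS and 0.09 in H-PFNA livers against the control of the diet, and Aldh1a7 by 0.96, 0.79, 0.52 and 0.14. These genes were taken for their likeness, so their values are a description without a test, over arrays that share groups and a normalization.

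The mean standardised level of the 10 members lay between −1.16 and −0.97 on the 3 LFD arrays and between −0.52 and 0.82 on the other 15. The sinusoidal endothelial markers were lowest on 2 of these 3 LFD arrays, replicates 1 and 2. Their mean log2 signal (9 of 9 genes) lay between 8.31 and 8.71 in L-PFOS and between 8.62 and 8.69 in L-PFNA livers, against 7.89 to 8.33 in LFD livers. This was not particular to the endothelial list. The stellate cell and fibroblast means were also lowest on LFD replicates 1 and 2, at 6.711 and 6.689. Only HFD replicate 3, at 6.72, had a lower Kupffer cell and macrophage mean than these 2 arrays. The lymphocyte markers differed, with their lowest mean on H-PFOS replicate 3 (4.28). The part of these cells in the members' values was not tested.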
